A study of Mus musculus with 18 samples.

Results

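Platelets are shed by megakaryocytes, the large polyploid cells of the bone marrow and fetal liver, and carry proteins that few other cells make. The genes described here are 10 that encode such proteins: Pf4, Ppbp, Vwf and Treml1, whose products are stored in or displayed from the alpha-granules, Gp1ba, Gp1bb, Gp5 and Gp9, which encode the subunits of the GPIb-IX-V receptor, Gp6, the collagen receptor, and F2rl2, the thrombin receptor PAR3 of mouse platelets. They were chosen by name from a list of platelet proteins. All 10 were found among the 20066 genes of a table of differentiation stages, and 9 of the 10 had a row of their own among the 20268 genes of a table of reprogrammed fibroblasts.

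RNA had been sequenced along the path from mouse embryonic stem cells (strain 129, carrying a Brachyury-GFP reporter) to macrophages. The stages were ESC, mesoderm (MES, Bry+ Flk1-), hemangioblast (HB, Bry+ Flk1+), hemogenic endothelium (HE, Tie2+ cKit+ CD41-), hematopoietic progenitors (HP, CD41+) and macrophages (MAC, CD11b+). Per the labels, 5 of these 6 stages had 2 samples each, and the HE column has no sample in this series, but the table holds 1 combined value per stage. Per the series text, the HE value comes from a sample of an earlier series. At the steps from HB to HE and from HE to HP, stage and series therefore cannot be told apart. The second experiment used mouse embryonic fibroblasts (MEFs, strain 129, embryonic day 14.5) left untreated (uFIB) or made to express SCL and LMO2 (SL), SCL, FLI1, GATA2 and LMO2 (SFGL) or FLI1, GATA2 and LMO2 (FGL), with 1 library for each condition at day 12 and at day 21. In iTal1-2A-GFP MEFs, which also carry rtTA, SCL, the product of Tal1, was induced by doxycycline from a TRE-TAL1 cassette. The other factors came from lentiviruses. The study also used wild type MEFs and describes expression vectors for all of the factors, SCL included. Per the study's methods the starting MEFs were sorted to be free of CD45, CD41, CD31 and CD117, and the culture medium held thrombopoietin, the growth factor of megakaryocytes, among other blood cytokines. The labels do not say which libraries came from wild type and which from iTal1-2A-GFP MEFs.

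All values are FPKM, a read density scaled to transcript length and library size, so levels can be compared between genes within a table. The 2 tables were normalised separately. The tables hold no replicate values, since a stage column combines its samples and each MEF condition has 1 library a day. The days were not taken as replicates, no test was run and no error is given. The number of reads behind each value is unknown, and values below about 1 FPKM should be read as low rather than ordered. Changes were computed as the difference in log2(FPKM + 1), and a gene was counted as higher or lower past 2-fold on that scale, a scale that makes differences between low values look small. The first count of the 10 genes in a comparison is set beside the percentage of all genes in the table that passed the same limit. These are bulk measurements, in which fewer cells of a type and less RNA per cell cannot be told apart.

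The labels were checked first. Tal1 was at 62.0 and 347 FPKM in SL at days 12 and 21, at 58.1 and 119 in SFGL, and at 0.0414 and 0.415 in uFIB. The label FGL does not name SCL. In the libraries so labelled, Tal1 was at 7.04 FPKM at day 12 and 0.0705 at day 21. Values per gene cannot separate transgene RNA from endogenous Tal1 RNA, and the source of Tal1 in the day 12 library was not tested. Fli1 was at 8.29 and 3.35 FPKM in the libraries labelled FGL against 3.43 and 3.02 in uFIB, while Gata2 (21.9 and 35.1 against 1.80 and 2.14) and Lmo2 (36.2 and 66.5 against 0.499 and 2.28) were higher. At day 21 Fli1 thus did not set the library labelled FGL apart from uFIB. In SFGL, which was also supplied with FLI1, it was at 41.2 and 27.8 FPKM, below the 46.7 and 34.4 of SL, which was not. Gata2, not supplied in SL either, was at 68.8 FPKM there at day 12. Among the stages, the CD41 gene Itga2b was at 62.5 FPKM in HP, 19.5 in HE and 7.75 in MAC, and at 1.51 or lower before HE. CD41 was used to sort HE and HP, so that difference is part of the gate.

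The GATA factors and the ETS factor FLI1 are the textbook regulators of megakaryocyte genes. RefSeq promoters (build GRCm38.p6) were at hand for 9 of the 10 genes, Vwf being the exception, and the 250 bases before each start were searched on both strands for 2 kinds of hexamer. The GATA hexamers were AGATAA and its forms that begin with T, end in G or do both. The ETS hexamers were AGGAAG and its form that begins with C. Overlapping matches were each counted. A GATA hexamer stood in 5 of the 9 windows, against 26.5% of 32851 promoters, and an ETS hexamer in 6 of the 9, against 39.2%. Both stood in 4 of the 9 windows, against 9.21%. The hexamers were chosen after the sequences had been seen, so these shares describe the letters only, and control by either kind of factor was not tested. The windows of 4 genes are shown over the last 150 bases before the start, because they span the patterns described below: Gp1ba, Gp5 and F2rl2, which were highest in HP, and Pf4, which was highest in MAC. Capitals mark GATA and ETS hexamers in either orientation. The windows lie at chr11:70638972-70639121 (plus strand), chr16:30310782-30310931 (minus strand), chr13:95696770-95696919 (plus strand) and chr5:90772285-90772434 (plus strand).
Gp1ba: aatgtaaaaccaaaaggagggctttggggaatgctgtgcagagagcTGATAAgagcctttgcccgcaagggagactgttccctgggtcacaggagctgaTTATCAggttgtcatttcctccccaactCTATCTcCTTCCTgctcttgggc
Gp5: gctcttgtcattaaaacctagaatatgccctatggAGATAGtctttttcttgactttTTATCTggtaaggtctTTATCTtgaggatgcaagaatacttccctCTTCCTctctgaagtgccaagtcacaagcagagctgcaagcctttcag
F2rl2: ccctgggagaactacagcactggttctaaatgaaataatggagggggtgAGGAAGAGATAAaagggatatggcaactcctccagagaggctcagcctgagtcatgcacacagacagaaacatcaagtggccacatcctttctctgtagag
Pf4: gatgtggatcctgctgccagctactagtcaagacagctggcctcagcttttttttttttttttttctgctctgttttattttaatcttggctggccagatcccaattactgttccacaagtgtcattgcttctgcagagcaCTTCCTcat
Gp1ba and Gp5 each held 3 GATA hexamers and 1 ETS hexamer. In F2rl2 an ETS hexamer, whose first base lies 101 bases before the RefSeq start, runs directly into a GATA hexamer. The GENCODE start of F2rl2, at chr13:95696853, lies inside the window shown, so the 2 sources differ on the start. The Pf4 window held 1 ETS hexamer and no GATA hexamer.

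The transition from HE to HP was the first at which any of the genes passed 2-fold on the log2(FPKM + 1) scale, and they parted again from HP to MAC. In ESC, MES and HB every one of the 10 was below 0.4 FPKM, and their summed level was 0.798, 0.230 and 0.242 FPKM. The sum was 2.17 FPKM in HE, 41.4 in HP and 300.1 in MAC. Of the MAC sum, 26.3 FPKM came from the 9 genes other than Pf4. Their highest value fell in HP for 6 genes (Gp1ba, Gp1bb, Gp5, Gp6, Gp9 and F2rl2) and in MAC for 4 (Pf4, Ppbp, Vwf and Treml1). Gp1ba, Gp6 and Ppbp were below 1 FPKM at every stage, so their place in this split is uncertain. Of the 17236 genes above 0 in any stage, 6.92% were highest in HP and 36.6% in MAC.

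**Figure D1:**
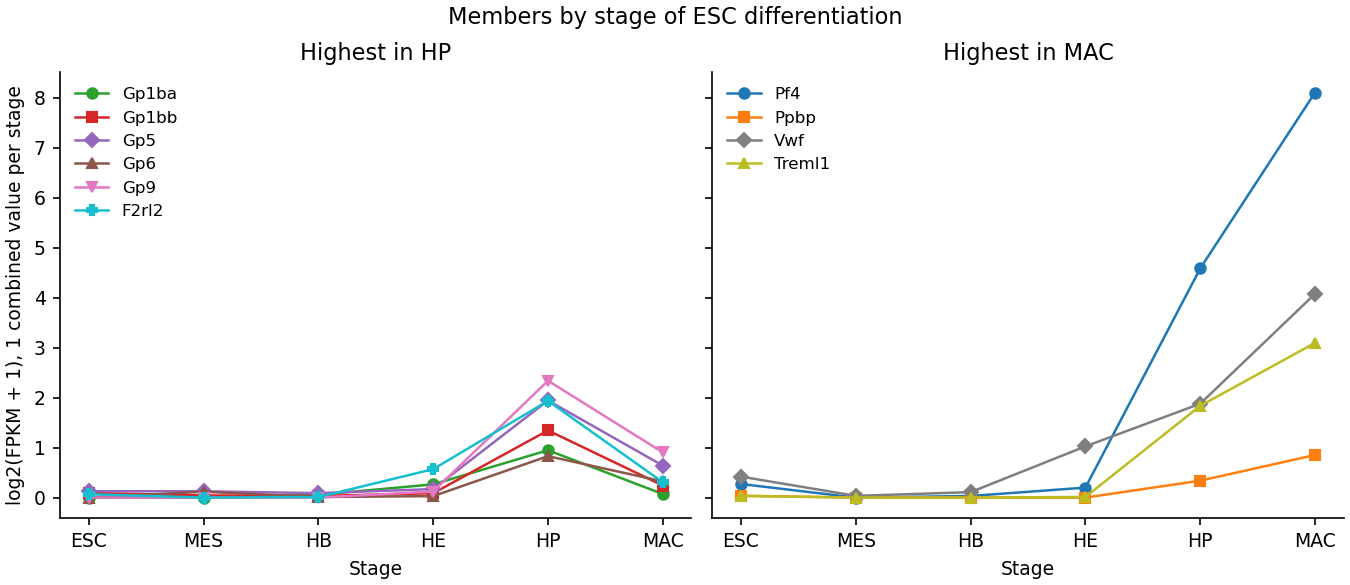
Levels of the 10 genes at each stage of ESC differentiation as log2(FPKM + 1), with 1 combined value per stage and no error. The left panel holds the 6 genes that were highest in HP and then lower in MAC, and the right panel the 4 genes, led by Pf4 at 273.7 FPKM, that were highest in MAC. Gp1ba, Gp6 and Ppbp were below 1 FPKM at every stage.

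From HB to HE none of the 10 genes passed 2-fold upward, against 4.49% of all genes. This count turned on the pseudocount: with 0.1 in place of 1, 4 of the 10 passed it, against 8.42% of all genes, and with 0.001, 8 did, against 13.7%. The closest was Vwf, the large adhesive protein of endothelial cells and megakaryocytes, at 0.0782 FPKM in HB and 1.03 in HE. F2rl2 was next, at 0.00724 and 0.483 FPKM. Vwf was thus the only one of the 10 above 1 FPKM in HE, where all 11 measured endothelial markers were at 1 FPKM or more and summed to 563 FPKM, against 119 in HB and 121 in HP. The part of endothelial RNA in the Vwf value was not tested.

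From HE to HP 6 of the 10 genes passed 2-fold upward (Pf4, Gp9, Treml1, Gp5, F2rl2 and Gp1bb), against 2.65% of all genes, and none passed it downward, against 4.95%. All 10 had a higher value in HP, with a median change of 1.31 on the log2 scale against 0 for all genes. The 4 that did not reach the limit were Vwf, Gp6, Gp1ba and Ppbp, with changes of 0.85, 0.80, 0.68 and 0.34. Between the same columns the summed level of 11 red cell markers went from 249 to 7051 FPKM. HP thus held primitive red cell RNA beside that of the platelet genes, and the part of each cell type was not tested.

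Among the alpha-granule genes, Pf4, a chemokine also called platelet factor 4, was at 23.0 FPKM in HP and 273.7 in MAC. Before HP it was no higher than 0.207 FPKM (ESC), with 0 in MES, 0.0223 in HB and 0.148 in HE. It had the highest value of the 10 in both HP and MAC, 5.67 times the next gene in HP and 17.3 times in MAC. Treml1, a receptor held in alpha-granules until platelets are activated, was at 0.0225 FPKM in ESC, 0.00875 in HE, 2.57 in HP and 7.54 in MAC, and at 0 in MES and HB. Vwf was at 0.337, 0.0240, 0.0782, 1.03, 2.67 and 15.9 FPKM from ESC to MAC. These 3 genes were thus higher at each step from HE onward. Treml1 lies at chr17:48359916-48367176 and Vwf, with 52 exons the longest of the 10 genes, at chr6:125546774-125686679, both on the plus strand. Ppbp, the precursor of platelet basic protein and a neighbour of Pf4, stayed low, at 0.0261 FPKM in ESC, 0 in MES, HB and HE, 0.264 in HP and 0.805 in MAC.

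The GPIb-IX-V receptor binds VWF and tethers platelets to damaged vessels. Gp9, its small GPIX subunit, was at 0 FPKM in ESC, MES and HB, 0.0877 in HE, 4.05 in HP and 0.871 in MAC. Gp5 was between 0.0631 and 0.125 FPKM from ESC to HE, at 2.84 in HP and at 0.559 in MAC. Gp1ba, the subunit that binds VWF, was at 0 FPKM in ESC and MES, 0.0398 in HB, 0.201 in HE, 0.928 in HP and 0.0503 in MAC. All of them had their highest value in HP, that of Gp1ba being below 1 FPKM. They lie on different chromosomes, Gp9 at chr6:87778072-87779768 (plus strand), Gp5 at chr16:30307685-30310779 (minus strand) and Gp1ba at chr11:70639122-70642036 (plus strand), each with 2 exons. Gp1bb (chr16:18620317-18622403, minus strand) was between 0.0233 and 0.0657 FPKM from ESC to HE, 1.54 in HP and 0.182 in MAC, but 91.1% of its 2087 exon bases are also exon bases of Sept5 on the same strand of chr16, so reads of the 2 genes are hard to divide and its values are uncertain. The Sept5 row of the same table was at 0.417 FPKM in HE and 0.273 in HP and did not follow it.

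The receptors for collagen and thrombin also had their highest value in HP, that of Gp6 being below 1 FPKM. Gp6 (chr7:4363965-4397744, minus strand), which signals through the Fc receptor gamma chain, was at 0.0847 FPKM or lower from ESC to HE, at 0.776 in HP and at 0.252 in MAC. F2rl2 was at 2.82 FPKM in HP, with 0.483 in HE before it and 0.237 in MAC after it, and the earlier stages held 0.0469 (ESC), 0 (MES) and 0.00724 (HB). F2rl2 lies at chr13:95696853-95702739 on the plus strand, inside Iqgap2 (chr13:95627177-95891922, minus strand), and shares no exon base with it. Iqgap2 was at 4.89 FPKM in HB, 12.1 in HE, 12.3 in HP and 1.95 in MAC. Its step from HE to HP was far smaller than that of F2rl2. From HB to HE and from HP to MAC the 2 genes changed in the same direction.

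In HP the order of levels was Pf4, Gp9, Gp5, F2rl2, Vwf, Treml1, Gp1bb, Gp1ba, Gp6 and Ppbp. The 4 genes from Gp5 to Treml1 lay between 2.57 and 2.84 FPKM, and no replicate error is at hand to order them. Pf4 at the top stood apart from the next gene. Gp1ba, Gp6 and Ppbp were all below 1 FPKM and are read as low rather than ordered.

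From HP to MAC 4 genes passed 2-fold downward (F2rl2, Gp9, Gp5 and Gp1bb), against 7.47% of all genes, and 3 passed it upward (Pf4, Vwf and Treml1), against 18.0%. After the columns were brought to the same upper quartile, 4 genes passed it downward against 12.6% of all genes, and 2 (Pf4 and Vwf) upward against 10.1%, the change of Treml1 being 1.26 as deposited and 0.62 after scaling. Gp1ba and Gp6 were also lower in MAC, with changes of -0.88 and -0.50 on the log2 scale, and Ppbp was higher by 0.51. The summed level of the 4 receptor subunit genes went from 9.36 to 1.66 FPKM. The columns differ in scale at this step: among the 10820 genes that averaged 1 FPKM or more, the median change was 0.35 as deposited and -0.22 after the columns were brought to the same upper quartile, and genes passing 2-fold were 70.7% higher ones as deposited and 44.5% after scaling. The split of the 10 genes was 4 higher and 6 lower on both scales.

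**Figure D2:**
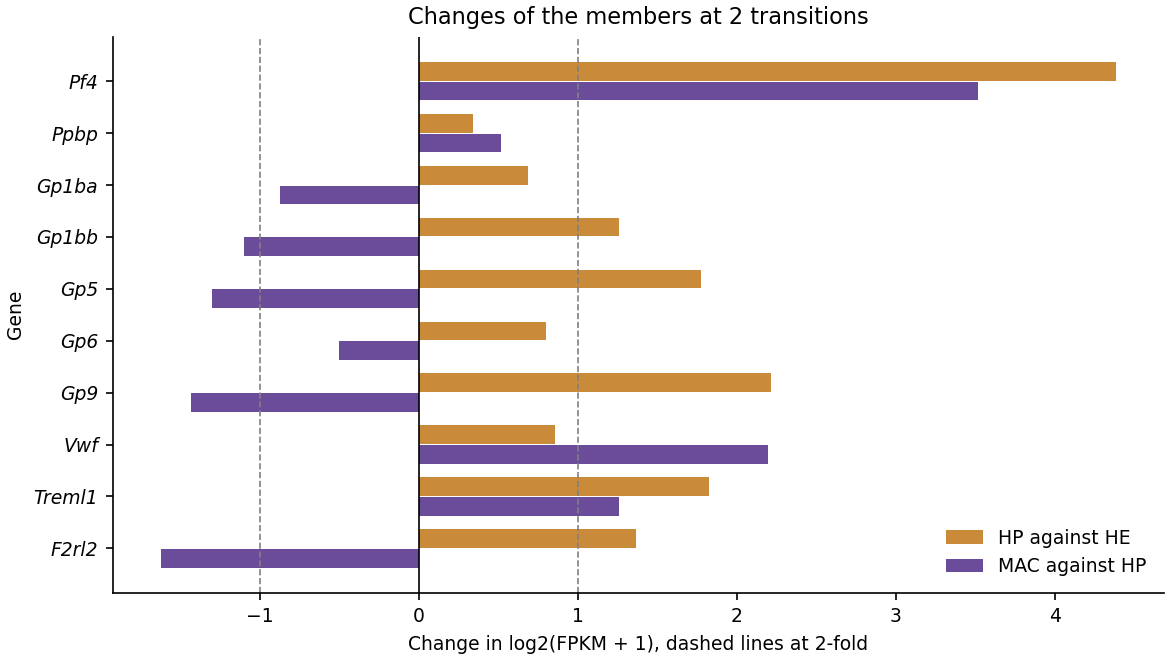
Change of each gene in log2(FPKM + 1) from HE to HP and from HP to MAC, with dashed lines at 2-fold. All 10 bars for HP point to the right, while the bars for MAC split into 4 genes that were higher and 6 that were lower than in HP.

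MAC differed from HP in its other markers too. All 11 measured macrophage markers were at 1 FPKM or more in MAC and summed to 7579 FPKM, against 25.9 in HP, and the red cell markers were at 332 FPKM. Itga2b was at 62.5 FPKM in HP and 7.75 in MAC. It thus went with the 6 genes that were lower in MAC and not with Pf4, Vwf and Treml1. Whether the MAC values of those 3 came from macrophages or from other cells of the sort was not tested.

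The promoter windows were also counted by the stage of the highest value. Of the 6 genes highest in HP, all with a promoter entry, 5 held a GATA hexamer (Gp9 did not). Of the 4 highest in MAC, 3 had an entry and none of these (Pf4, Ppbp and Treml1) held one. Over all promoters the share with a GATA hexamer was 26.5%. Gp1ba, Gp6 and Ppbp were below 1 FPKM at every stage, so the stage given to them is uncertain. The hexamers were chosen after the sequences had been seen and the counts are small, so this is a description of these letters only.

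In MEFs the question was which combinations of factors bring on blood genes in fibroblasts, and all 9 measurable platelet genes were higher in SL and SFGL than in uFIB on both days. In uFIB every gene was below 1 FPKM, and their sums were 0.666 FPKM at day 12 and 1.43 at day 21. In SL the sums were 75.6 and 66.4 FPKM, and in SFGL 66.7 and 85.7. In the libraries labelled FGL they were 8.85 and 1.23. The tenth gene, Gp1bb, was deposited only in a row shared with Sept5, at 83.3 FPKM in SL, 34.3 in uFIB, 54.2 in SFGL and 37.3 in the library labelled FGL at day 12. At day 21 the same 4 conditions held it at 45.8, 29.5, 27.0 and 40.2 FPKM, and no part of that row could be given to either gene.

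Against uFIB, 8 of the 9 genes passed 2-fold upward in SL at day 12 (background 8.61%) and 8 of 9 at day 21 (background 7.24%). In SFGL 8 of 9 passed it at day 12 (background 8.92%) and 8 of 9 at day 21 (background 8.53%). The gene that did not pass was Gp6 at day 12 and Treml1 at day 21, in both conditions. The median change of the 9 genes in SL was 1.72 at day 12 and 1.85 at day 21 on the log2 scale, against 0 for all genes each time. SL and SFGL were each compared with the same uFIB library, so their counts are not independent of each other.

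**Figure D3:**
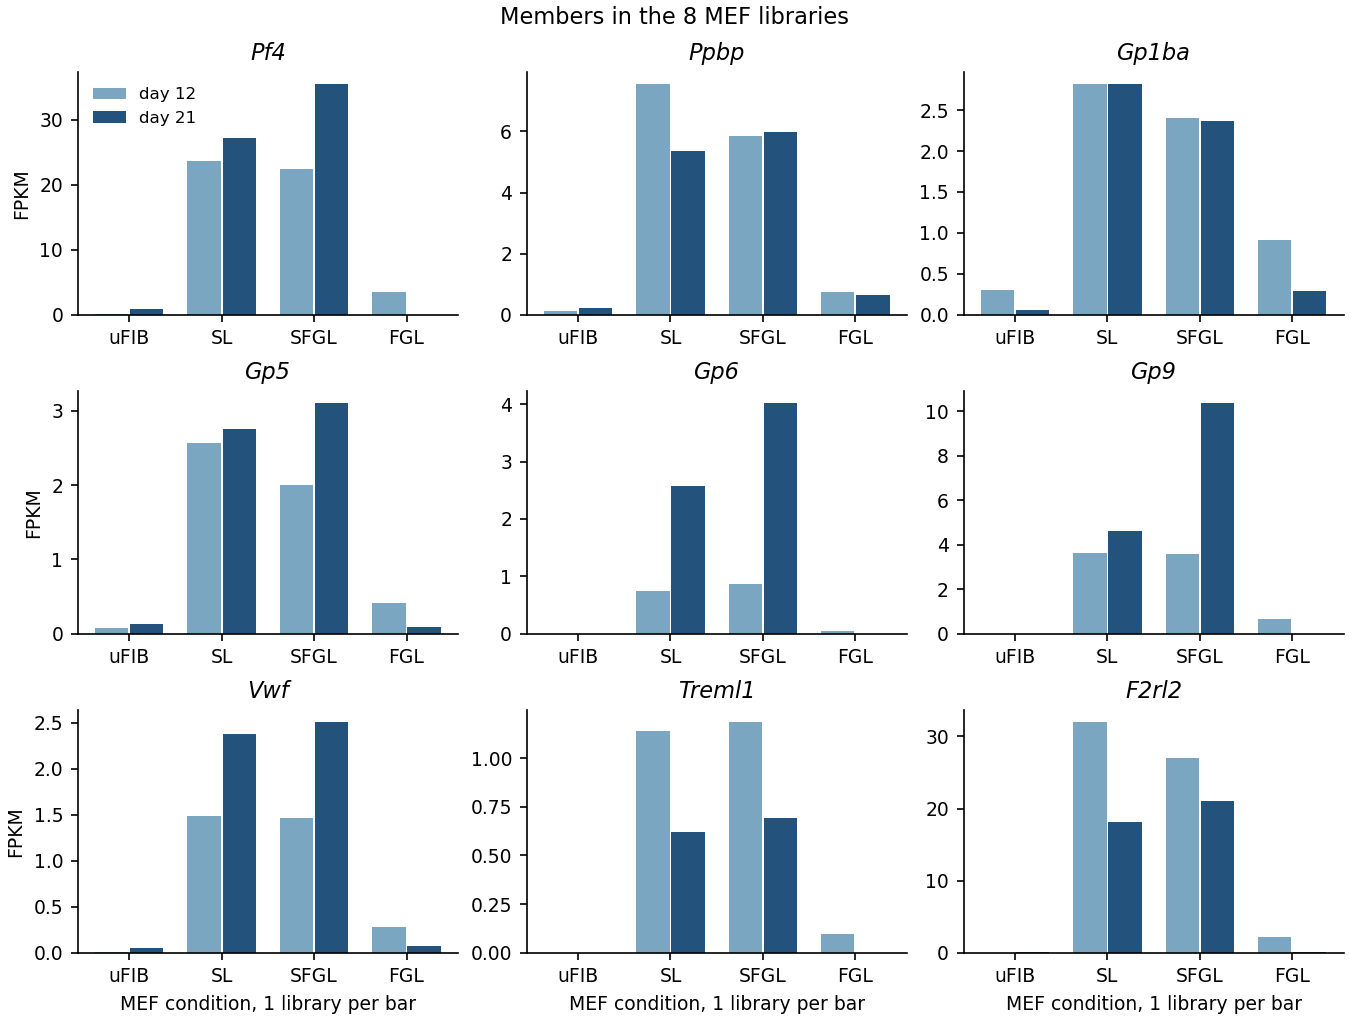
FPKM of the 9 genes in the 8 MEF libraries, 1 library per bar and no error, with day 12 in light and day 21 in dark bars. SL and SFGL are above uFIB and the libraries labelled FGL for every gene on both days, Gp6 and Gp9 stand higher at day 21 in SFGL, and Treml1 and F2rl2 are lower at day 21 than at day 12.

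The chemokine genes were among the highest. At day 12 Pf4 was at 23.6 FPKM in SL and 22.4 in SFGL, against 3.47 in the library labelled FGL and 0.144 in uFIB. At day 21 it was at 27.2 and 35.6 FPKM against 0 and 0.903. For Ppbp the corresponding values were 7.56 and 5.84 FPKM against 0.728 and 0.125 at day 12, and 5.36 and 5.97 against 0.639 and 0.219 at day 21. SL and SFGL were above the other libraries for both genes. The 2 genes lie 2371 bases apart on chr5 (Ppbp at chr5:90768518-90770063 and Pf4 at chr5:90772435-90773383, both on the plus strand with 3 exons). Their neighbour Cxcl5, a neutrophil chemokine gene 6893 bases before Ppbp, did not follow them, with 29.2 FPKM in SL and 17.9 in SFGL against 24.6 in uFIB at day 12, and 22.8 and 40.4 against 45.5 at day 21. Of the 4 measured CXC chemokine genes beside the pair, 2 (Cxcl2 and Cxcl3) passed 2-fold upward in SL at day 12 (background 8.61%) and 3 (with Cxcl1) at day 21 (background 7.24%).

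Vwf was at 1.49 FPKM in SL and 1.47 in SFGL at day 12, against 0.277 in the library labelled FGL and 0.0126 in uFIB. Its values at day 21 were 2.38 and 2.51 FPKM against 0.0753 and 0.0486. Treml1 was listed at 0 in uFIB on both days, at 1.14 FPKM in SL, 1.19 in SFGL and 0.0965 in the library labelled FGL at day 12, and at 0.621, 0.695 and 0 in the same order at day 21. Treml1 was the lowest of the 9 genes in SL and SFGL at day 21. The 2 genes were thus on different sides of their day 12 values at day 21, by a difference that has no replicate check.

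Gp9 was listed at 0 in uFIB on both days. At day 12 it was at 3.64 FPKM in SL, 3.59 in SFGL and 0.648 in the library labelled FGL, and at day 21 at 4.62, 10.4 and 0. Gp5 was at 2.57 FPKM in SL and 2.00 in SFGL against 0.417 in the library labelled FGL and 0.0821 in uFIB at day 12, and at 2.75 and 3.11 against 0.0933 and 0.134 at day 21. SL and SFGL were close for Gp5 and for Gp9 at day 12, and SFGL was 2.25 times SL for Gp9 at day 21. Gp1ba was at 2.82 FPKM in SL and 2.40 in SFGL against 0.910 in the library labelled FGL and 0.303 in uFIB at day 12, and at 2.81 and 2.37 against 0.295 and 0.0605 at day 21. Of the 3 subunits, Gp1ba was the least different between SL and the library labelled FGL at day 12.

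Gp6 was listed at 0 in uFIB on both days and was at 0.739 FPKM in SL, 0.865 in SFGL and 0.0517 in the library labelled FGL at day 12, and at 2.57, 4.02 and 0 at day 21. F2rl2 was at 32.0 FPKM in SL and 27.0 in SFGL against 2.25 in the library labelled FGL and 0 in uFIB at day 12, and at 18.1 and 21.0 against 0.124 and 0.0676 at day 21. F2rl2 had the highest value of the 9 genes in SL and SFGL at day 12 and stood second to Pf4 at day 21. Iqgap2, the gene around it on the other strand, was at 0.803 FPKM in uFIB and 11.9 in SL at day 12 and was also higher there. Whether the counting used strand is not given in the sources used here, but the 2 genes share no exon base.

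Between days, only Gp6 passed 2-fold upward in SL at day 21 against day 12, 1 of 9 genes against 1.05% of all genes. In SFGL, Gp6 (4.65 times) and Gp9 (2.90 times) were the 2 genes past 2-fold, against 2.90% of all genes in either direction. F2rl2 and Treml1 were lower at day 21 in both conditions, at 56.6% and 54.6% of their day 12 values in SL and at 78.0% and 58.6% in SFGL. For all genes in SL, 37.6% of those past 2-fold were higher ones as deposited and 47.9% after scaling to the same upper quartile. Steps between low values put the depth of SL at 1.55 times that of uFIB day 12 for day 12 and 0.602 times for day 21, which bears on the low values of Gp6 and Treml1, and its part was not tested.

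SFGL and SL differed past 2-fold for 1 gene on 1 day. At day 12 none of the 9 differed past 2-fold in either direction, against 0.488% of all genes, and at day 21 only Gp9 did, against 0.710% of all genes. SFGL was 2.17 times SL for Itga2b at day 12 and 2.19 times at day 21, a gap matched among the 9 genes by Gp9 alone, at day 21. No interval was computed for these differences.

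The library labelled FGL at day 12 held all 9 genes at levels between those of uFIB and SL. Only Pf4 and F2rl2 passed 2-fold upward against uFIB, 2 of 9 genes against 1.74% of all genes. At day 21 none of the 9 did, against 0.276% of all genes, and Pf4, Gp6, Gp9 and Treml1 were listed at 0. Steps between low values put the depth of the library labelled FGL at day 21 at 0.584 times that of uFIB day 12. The estimate is rough, with 19.25% of 1257 low genes at the most common ratio. A low level may thus have gone unseen. Among all genes past 2-fold at day 21, 56.0% were higher ones as deposited and 45.3% after scaling.

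As a share of its level in SL, each gene in the library labelled FGL at day 12 lay between 7.0% (Gp6) and 32.3% (Gp1ba), with a median of 14.7%. Tal1, whose product is not named in the label of that library, was at 11.4% of its SL level. Itga2b was at 17.8%, and the summed macrophage, red cell and endothelial markers were at 19.1%, 31.2% and 36.8%. The macrophage sum was 75.7 FPKM in that library and 66.1 in uFIB. The mast cell markers were at 14.1% with Gata2, a factor supplied in FGL, and at 8.98% without it, a split chosen after seeing the data. Lmo2, a factor supplied to both, was at 63.5%, and the summed fibroblast markers at 268%. The share of Tal1 lay within the range of the 9 genes, and the reason was not tested.

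**Figure D4:**
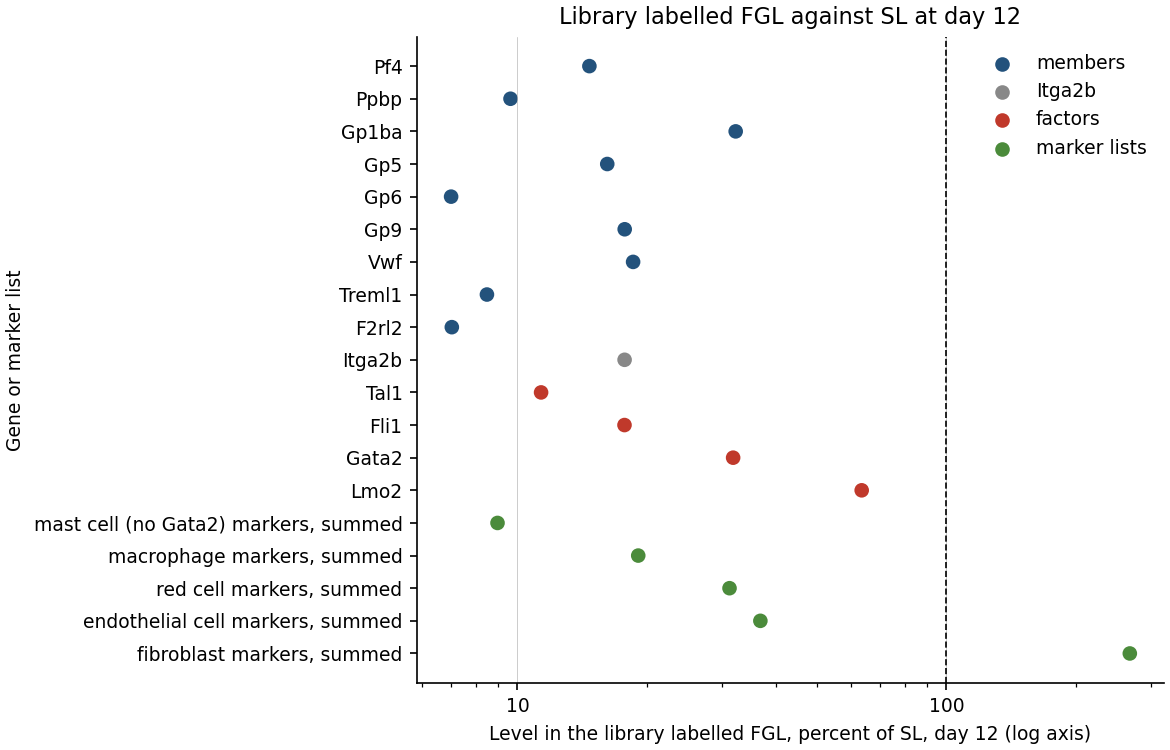
Level in the library labelled FGL as a percentage of the level in SL at day 12, on a log axis, for the 9 genes, Itga2b, the 4 factors and the summed markers of 5 cell types, with Gata2 left out of the mast cell list (1 library per condition). The 9 genes lie between 7.0% and 32.3%, around Tal1 at 11.4%, and the fibroblast markers alone lie above 100%.

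Markers of other blood cells accompanied the platelet genes in SL and SFGL. All 11 red cell markers were at 1 FPKM or more in the 4 libraries, with sums of 169 to 500.1 FPKM against 2.49 and 3.58 in uFIB. The 10 mast cell markers, which include Gata2, summed to 223 to 448 FPKM against 2.77 and 3.43, and 8 or 9 of them were at 1 FPKM or more. Of 12 macrophage markers 5 to 7 were at that level and summed to 187 to 402 FPKM. The uFIB libraries held 3 and 4 such markers, with sums of 66.1 and 27.1 FPKM. C1qa, C1qb and C1qc were at or near 0. Of 12 endothelial markers 5 to 7 were at that level, against 2 in each uFIB library. They summed to 50.5 to 66.1 FPKM against 14.1 and 15.6. Egfl7 and Pecam1 were the highest of them in SL at day 12, at 18.7 and 10.5 FPKM. Kdr (0.173 against 0.748 FPKM) and Eng (7.41 against 8.30) were the only ones below uFIB there. The 10 fibroblast markers were still at 2071 to 3096 FPKM against 9421 and 7250 in uFIB. Their part in the values of the 9 genes was not tested.

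The other genes of the platelet programme were counted on fixed lists. The counts of each list stand against 2.65% of all genes upward and 4.95% downward from HE to HP, 18.0% and 7.47% from HP to MAC, and 7.24% and 7.50% in SL at day 21. Of the genes that averaged 1 FPKM or more, 30.9% passed 2-fold upward from HP to MAC. Of 18 megakaryocyte transcription factors 7 passed 2-fold upward from HE to HP and none downward, and from HP to MAC none passed it upward and 7 downward. Tal1, Nfe2, Zfpm1 and Lmo2 were the highest of them in HP, at 57.3, 54.5, 52.3 and 49.4 FPKM. In MAC the first 3 were at 18.1, 4.63 and 2.91 FPKM, while Lmo2 was at 53.1. In SL at day 21 9 of the 18 passed 2-fold upward and 1 downward, with Tal1, Lmo2 (both supplied), Nfe2 and Gata2 at the top, and at day 12 9 passed it upward and 3 downward (background 8.20% downward).

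Of 8 genes for platelet integrins and the proteins that activate them, 4 passed 2-fold upward and 1 downward from HE to HP, and 4 upward and 2 downward from HP to MAC. Itgb1, the broadly expressed beta 1 integrin, was highest in HP at 108 FPKM, followed by Itgb3, the partner of CD41, at 96.7, Tln1 at 80.5 and Fermt3 at 80.0. In SL at day 21, 4 of the 8 were higher and none lower, among them Itga2b at 53.6 FPKM against 1.003 in uFIB and Fermt3, the kindlin of blood cells, at 69.6 against 0.433.

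Of 22 measured agonist receptor and signalling genes 10 were higher and 3 lower in HP than in HE, and 9 higher and 10 lower in MAC than in HP. F2r, the thrombin receptor PAR1, was at 291 FPKM in HE, 123 in HP and 5.36 in MAC, unlike its relative F2rl2. Plek, the protein kinase C substrate pleckstrin, was at 1.26, 105 and 575 FPKM, and P2rx1, an ATP receptor, at 3.42, 28.7 and 3.37. In SL at day 21, 13 of 23 were higher and 2 lower, and Fcer1g, the Fc receptor gamma chain with which GPVI signals, was at 46.7 FPKM against 1.36 in uFIB.

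Of 20 granule genes 6 were higher and 1 lower in HP than in HE, and 9 were higher and 1 lower in SL at day 21 than in uFIB. From HP to MAC 8 were higher and 6 lower. Thbs1, the adhesive protein thrombospondin, was at 35.3 FPKM in HE, 81.3 in HP and 248 in MAC, and Srgn, the granule proteoglycan serglycin, was at 856 FPKM in SL at day 21 against 73.4 in uFIB. Of 12 cytoskeleton genes 4 were higher and 3 lower in HP than in HE, 2 higher and 4 lower in MAC than in HP, and 4 higher and none lower in SL at day 21. The genes highest in HP on that list, Flna, Tpm4, Vcl and Myh9, are expressed in many cell types and were at 138, 242, 146 and 263 FPKM in SL at day 21 against 165, 300.4, 124 and 185 in uFIB.

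Set against Itga2b in the same column, some of the genes differed in proportion between MEFs and HP. This comparison of proportions crosses the 2 separately normalised tables, and Itga2b was part of the HP gate. Pf4 was at 36.7% of Itga2b in HP and between 20.7% and 50.7% in the 4 SL and SFGL libraries, and Gp9 at 6.48% and between 3.32% and 8.84%, so the HP value of both lay inside the MEF range. F2rl2 was at 4.51% of Itga2b in HP and between 17.9% and 64.4% in those libraries. Ppbp was at 0.422% in HP and between 5.08% and 15.2% in those libraries. Treml1 went the other way, at 4.11% in HP and at 2.29% or less in those libraries. Tubb1, the platelet beta-tubulin, chosen after its values were seen, did so too, at 67.9% in HP and at 5.22% or less. Itgb3, Plek and Gata1 were also lower, at 154.7%, 167.7% and 59.5% in HP. Their highest values in those libraries were 56.3%, 150.5% and 55.8%.

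**Figure D5:**
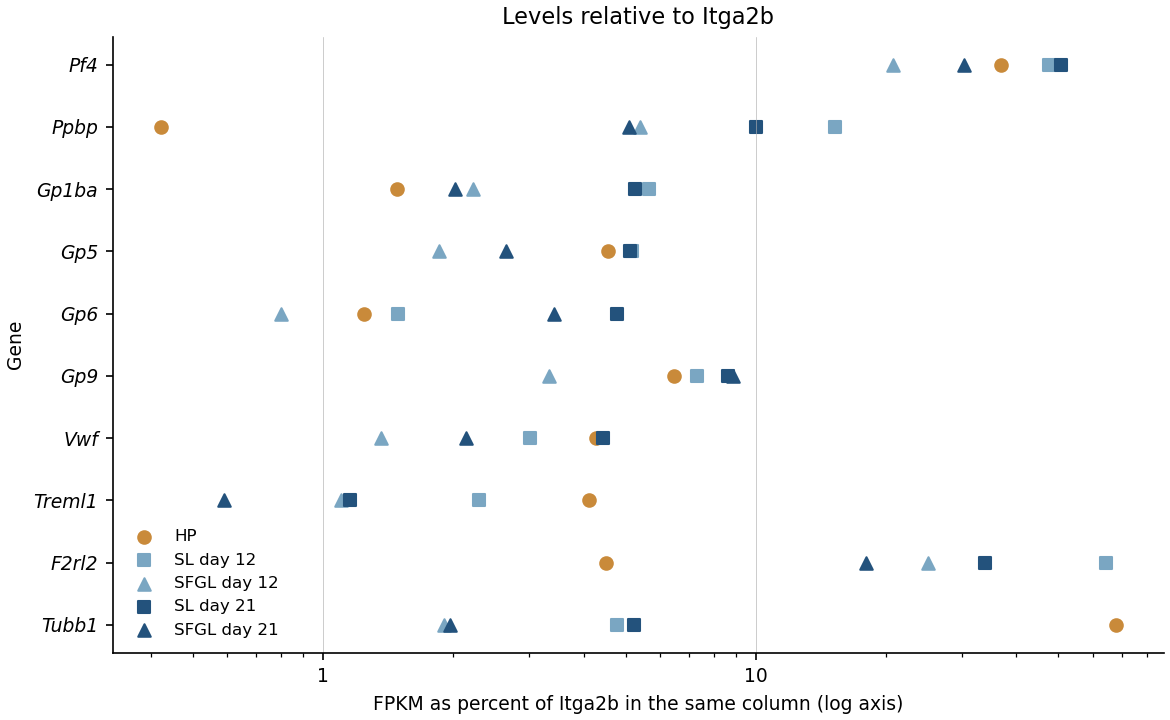
Level of the 9 genes and Tubb1 as a percentage of Itga2b in the same column, on a log axis, in HP and in the SL and SFGL libraries. F2rl2, Ppbp and, by less, Gp1ba lie to the right of their HP point in all 4 MEF libraries, and Tubb1 and Treml1 to the left of it.

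Likeness between the genes was measured over the columns of each table. Pearson's r of each gene with the mean of the others, on log2(FPKM + 1), was between 0.855 (Gp6) and 0.996 (Gp5) over the 8 MEF libraries. Over the 6 stages it was between 0.576 (Gp1ba) and 0.942 (Treml1). The mean of the genes, 10 over the stages and 9 over the MEF libraries, was also compared with 8069 other genes that reached 5 FPKM in both tables. Most like it, by the lower of r over the 6 stages and r over the 8 libraries, were Rpia (0.983), Plek (0.979), Treml2 (0.978), Alox5 (0.974) and Rgs18 (0.972). Treml2 lies on chr17 near Treml1, 47382 bases before it, and was at 13.2 FPKM in HP, 14.1 in MAC, 12.4 in SL at day 12 and 0 in uFIB at day 12. These correlations rest on few points that share libraries and are given as a description, and the list of 5 changed with the processing.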

How the data were processed

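RNA-seq was analysed from 2 deposited tables. For the stages the authors, per the study's methods, aligned reads with SHRiMP, kept unique reads, removed duplicates with Picard and computed FPKM per transcription start site with cuffdiff of Cufflinks (genome build mm10), giving 1 combined FPKM for the samples of a stage. The labels name Bowtie and HOMER for ESC, and TopHat and Cufflinks for the MEF libraries, whose table holds 1 deposited FPKM per gene and library. Pooling replicates removes their spread, and FPKM keeps no read number.

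The 22089 start-site rows were summed per gene name. Each of the 10 genes had 1 such row. The MEF table held 20495 rows, with 227 repeated names that were summed. Groups came from the labels. The HE column has no sample in this series and was used as the authors' value. Changes were differences in log2(FPKM + 1), counted past 2-fold over all genes without a filter. The self-test on simulated data recovered its known changes. The members and lists were chosen with earlier results of these data known. A gene on 1 of the lists was left out and is not analysed here. Named on each list were the 4 genes highest in HP or in SL at day 21, with those needed for a result. Positions were taken from GENCODE M21 (GRCm38, the same build as mm10) and promoters from RefSeq. Relative depth of the MEF libraries was the most common ratio of values below 0.3 FPKM between a library and uFIB day 12. Alternatives were pseudocounts of 0.1 and 0.001, a 4-fold limit, scaling to the upper quartile (75%) of genes above 0, only genes averaging 1 FPKM or more, the highest start site of each gene, the mean of both uFIB libraries as reference and, chosen after seeing the data, counting the row shared by Gp1bb and Sept5 and leaving out the libraries labelled FGL. Python 3.11.15, pandas 2.3.3 and NumPy 2.4.6 were used.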

Additional observations from a re-analysis of the deposited data

Results flagged for a closer look

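Pf4 differed in direction between the 2 days in the libraries labelled FGL. Against uFIB on the log2(FPKM + 1) scale it was higher by 1.97 at day 12 (3.47 against 0.144 FPKM) and lower by 0.93 at day 21, a change of -0.93 (0 against 0.903 FPKM). Both day 21 values were below 1 FPKM and are read as low rather than ordered. The estimated depths at day 21 were 0.584 (labelled FGL) and 1.44 (uFIB) times that of uFIB day 12. With 1 library per condition the difference was not tested. It was the only one of 27 pairs (9 genes in 3 conditions) in which the changes at the 2 days had opposite signs and were both at least 0.1.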

How the results depend on the processing

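No paired analysis was possible because no result comes from a test and each stage or library gives 1 value. Of the counts of genes past 2-fold, 54 stayed within 1.5 times under an alternative and 18 did not, and no gene that passed 2-fold changed sign. With a pseudocount of 0.1 the counts were 4 of 10 from HB to HE (from 0), 10 of 10 from HE to HP (from 6), 7 of 9 for the library labelled FGL at day 12 (from 2) and 2 of 9 for that at day 21 (from 0). With 0.001 they were 8, 10, 9 and 2. At a 4-fold limit they were 2 from HE to HP, 0 lower from HP to MAC (from 4), 4 for SL at day 12, 4 for SL at day 21, 4 for SFGL at day 12, 5 for SFGL at day 21 (from 8 each), 0 for the library labelled FGL at day 12 and 0 for SL at day 21 against day 12 (from 1). Only 3 of 10 genes (Pf4, Vwf and Treml1) had a stage mean of at least 1 FPKM, and among them 2 were higher from HE to HP and 0 lower from HP to MAC. In MEFs 8 of 9 had such a mean. Low FPKM thus limits the counts for the stages and for the libraries labelled FGL. Of the 5 most similar genes, 3 were kept with a pseudocount of 0.1 and 2 without the libraries labelled FGL.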
